A study of Mus musculus with 6 samples.

Results

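The glycolytic enzymes examined here were 10 genes of the pathway from glucose to lactate, Hk1, Hk2, Gpi1, Pfkp, Pfkl, Aldoa, Tpi1, Pgk1, Pkm and Ldha, in the presomitic mesoderm (PSM) of mouse embryos. Members were all probe sets of the array table that are annotated to exactly 1 of these symbols. There were 19 such probe sets for 9 genes, of 19551 probe sets other than array controls and 10291 gene symbols in the table. Gpi1 had no probe set annotated to it in the table used. One more probe set names Hk1 among 6 symbols and was left out.

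RNA came from the anterior PSM at embryonic day 8.75, labelled as C57BL6/6J in background, and was measured on Affymetrix mouse expression arrays as 1 linear signal per probe set. There were 3 pools of each genotype, R26R AC/AC for controls and R26R AC/AC;T-Cre for mutants, with 3 dissected PSMs in a pool and 9 PSMs per genotype. The labels call the pools biological replicates. Both genotypes thus carried the AC allele at the ROSA26 locus, and only mutants carried T-Cre, in which the promoter of the mesodermal gene T (Brachyury) expresses Cre recombinase in the primitive streak and its descendants. The labels do not spell out AC; what is known of the study makes it A-CREB, a protein that blocks DNA binding by the CREB transcription factors once Cre has switched it on. No pool carried T-Cre without the AC allele, so effects of Cre and of AC cannot be told apart. The comparison asks which PSM transcripts differ between mutant and control, here among the enzymes of glycolysis.

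Glycolysis splits glucose into pyruvate in the cytosol, and lactate dehydrogenase reduces pyruvate to lactate, which restores the NAD+ that the pathway consumes. Embryonic mesoderm makes much lactate even where oxygen is present, and in the tail bud and PSM glycolysis is known to be graded along the body axis and tied to FGF and Wnt signalling. Enzymes of the pathway are classical targets of the hypoxia-inducible factor HIF-1 and of Myc, and several promoters have also been studied for cAMP response elements (CREs), to which the CREB family binds.

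In this tissue 0 of the 18 member probe sets that passed the low-signal filter changed between mutant and control (limma, adjusted p under 0.05). Over all 11731 probe sets tested, 0.69% changed. The members' log2 differences, mutant minus control, lay between −0.18 for a probe set of Pfkl and 0.26 for Hk1, with a median of −0.011. The median over all probe sets tested was −0.0018. For all 18 the 95% confidence interval lay within a 2-fold change in either direction, and for 15 it lay within 1.5-fold. Over all pools, the highest was 1.06 to 2.09 times the lowest, with the widest ranges in Aldoa 1433604_x_at (2.09) and Pfkp (2.06). The genotypes overlapped in every member but Hk1. A bulk signal does not tell fewer cells of a type from less RNA per cell.

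Because the series concerns the CREB family, the promoters of the members were searched for its binding motif before the values are given. RefSeq promoter windows of 300 bases, from 250 bases before to 50 bases after each annotated start (GRCm38.p6), were on hand for all 10 genes, 15 windows in all. The search covered 4 motifs on both strands. They were the full CRE, TGACGTCA, the short CRE, TGACG, which also lies inside the full CRE, the core of the hypoxia response element, ACGTG, and the E-box, CACGTG, to which Myc binds and which also holds the hypoxia core. The full CRE was in 1 of the 15 windows, that of Ldha, against 1.79% of all 32851 windows. The short CRE was in 4 windows of 3 genes, Hk2, Pkm and Ldha (20.8% of all windows hold it), and the hypoxia core in 7 windows of 6 genes, Hk1, Hk2, Aldoa, Pgk1, Pkm and Ldha (19.6%). The Aldoa windows with a hypoxia core overlap and hold the same match, so that 1 site is counted in both. The E-box was in 1 window, again that of Ldha (7.15%). These matches are a description of the letters in the windows, and binding was not measured here.

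The windows shown are the 3 with a short CRE nearest to the start, of Ldha, Hk2 and Pkm, and the Pgk1 window with 2 hypoxia cores. Capitals mark every match of the 4 motifs on either strand. The Ldha window (chr7:46845554-46845853, plus strand) holds the full CRE from 12 bases before the start and E-boxes from 145 and 48 bases before it. In the Hk2 window (chr6:82774405-82774704, minus strand) a hypoxia core and a short CRE overlap, from 52 and 50 bases before the start. The short CRE of Pkm (chr9:59656326-59656625, plus strand) lies 29 bases after the start, and the hypoxia cores of Pgk1 (chrX:106186850-106187149, plus strand) lie 150 and 131 bases before it.
Ldha: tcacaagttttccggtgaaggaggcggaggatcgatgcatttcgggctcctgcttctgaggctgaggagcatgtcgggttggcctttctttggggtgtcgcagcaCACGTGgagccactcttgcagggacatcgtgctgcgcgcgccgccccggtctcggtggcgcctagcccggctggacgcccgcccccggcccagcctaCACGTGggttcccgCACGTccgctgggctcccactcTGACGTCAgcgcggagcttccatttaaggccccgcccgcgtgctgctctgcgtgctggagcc
Hk2: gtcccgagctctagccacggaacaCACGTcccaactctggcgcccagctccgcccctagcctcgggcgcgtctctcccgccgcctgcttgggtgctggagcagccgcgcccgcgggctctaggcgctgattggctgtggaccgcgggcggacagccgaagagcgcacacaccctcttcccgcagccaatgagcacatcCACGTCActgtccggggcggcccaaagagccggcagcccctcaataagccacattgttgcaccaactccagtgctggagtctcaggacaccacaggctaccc
Pkm: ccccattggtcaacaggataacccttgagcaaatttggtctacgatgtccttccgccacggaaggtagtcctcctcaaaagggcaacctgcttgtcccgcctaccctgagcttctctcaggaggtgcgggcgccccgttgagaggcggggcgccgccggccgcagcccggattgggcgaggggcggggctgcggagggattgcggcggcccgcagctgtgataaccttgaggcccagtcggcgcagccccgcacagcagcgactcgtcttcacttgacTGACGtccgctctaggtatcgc
Pgk1: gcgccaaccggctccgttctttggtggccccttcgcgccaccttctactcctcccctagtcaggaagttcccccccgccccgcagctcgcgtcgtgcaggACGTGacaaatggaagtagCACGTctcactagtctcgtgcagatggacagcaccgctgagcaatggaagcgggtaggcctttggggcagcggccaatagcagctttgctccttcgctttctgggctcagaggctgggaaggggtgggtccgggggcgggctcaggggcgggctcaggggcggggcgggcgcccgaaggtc

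**Figure D1:**
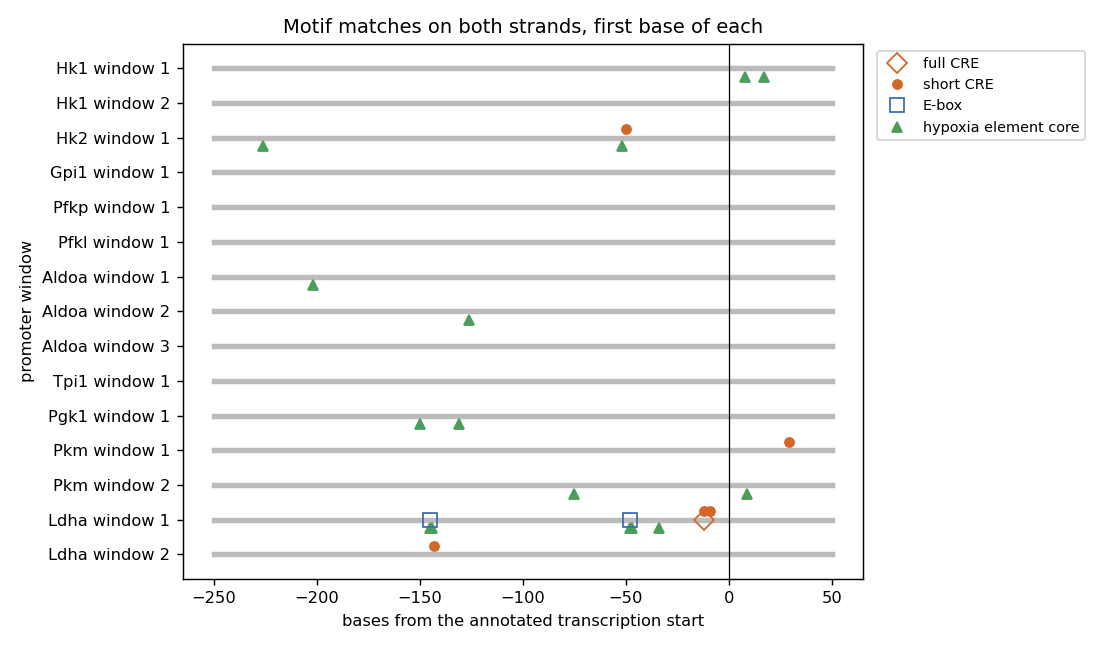
Motif matches in the 15 RefSeq promoter windows of the 10 glycolytic genes; the x axis gives bases from the annotated transcription start, each grey bar is 1 window, and each symbol is the first base of a match on either strand. The Ldha window 1 holds the only full CRE and the only E-boxes, and 6 genes have a hypoxia core in at least 1 window.

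The arrays differed in a way that genotype does not account for. The 3' to 5' signal ratio of the spiked control transcript dap, which enters before labelling, was 22.9, 23.8 and 19.6 in control 1, mutant 1 and mutant 2, and 10.2 to 12.2 in mutant 3, control 2 and control 3. The first 3 are called high-ratio arrays here and the others low-ratio arrays. The array's own control probe sets for Gapdh, the enzyme between Tpi1 and Pgk1 in the pathway, followed this split in part. The middle one read 13762 in control 1, 24301 in control 2 and 21088 in control 3, and in mutants 19868, 19270 and 26787. Among the tissue's markers, 11 of 15 PSM genes were above the filter and 2 were not in the table, and Ripply2, which sets the somite boundary, fell in mutants (log2 difference −1.56, SE 0.14, adjusted p = 0.0015). The summed signal of the PSM markers was 16742 to 20144 in controls and 9627 to 14530 in mutants. That of 8 epithelial markers was 24808 to 27663 in controls and 35910 to 38338 in mutants, and that of the 7 blood markers in the table was 73561 to 100789 and 102964 to 142538. Globins made up 97.6% to 98.1% of the blood sum, and 3 of their 7 tested probe sets overlapped between genotypes. Car2, Klf1 and Gata1 were higher in each mutant than in each control, as were 9.53% of all probe sets tested. Of these 3 genes only Car2 was above the filter (log2 difference 0.72, SE 0.15, adjusted p = 0.0753). Gata1 was nearly level in mutant 3, at 88.3, and control 2, at 87.5. Tal1, a transcription factor of blood progenitors, went the other way. It read 486, 607 and 547 in controls and 441, 342 and 230 in mutants (log2 difference −0.74, SE 0.23, adjusted p = 0.202). Of the tested probe sets, 1 of 12 for PSM fell, 0 of 9 for blood passed, 1 of 5 for endothelium fell, 1 of 10 for epithelia rose, 0 of 2 for neural tube passed and 2 of 3 for lateral mesoderm fell, where 0.69% of all probe sets passed. Unadjusted p lay under 0.05 for 8 of the 12 for PSM, 8 of the 9 for blood, 3 of the 5 for endothelium, 10 of the 10 for epithelia, 0 of the 2 for neural tube and 3 of the 3 for lateral mesoderm, against 13.6% of all. With the split of the arrays in the model, 5, 4, 3, 9, 0 and 3 of them passed in the same order, against 4.73% of all. The blood counts of 8 and 4 include Tal1, which fell (log2 difference −0.82, SE 0.20, adjusted p = 0.0289 with the split), while the other blood probe sets in them rose. Endothelial markers summed to 2668 to 3297 in controls and 1799 to 2321 in mutants, lateral mesoderm markers to 5461 to 5728 and 2550 to 3416, and neural tube markers to 4434 to 6254 and 4856 to 6942. What part these markers have in the values below was not tested.

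Hexokinase traps glucose in the cell as glucose-6-phosphate. Hk1, the widely expressed form, read 363, 384 and 379 in the controls, in the order of their replicate numbers, and 502, 463 and 391 in the mutants. It was the only member whose pools did not overlap between genotypes, all 3 mutant values lying above the 3 control values; over all probe sets tested, 9.53% had mutants above controls in this way. Its log2 difference was 0.26 (SE 0.15, 1.20-fold, 95% interval 0.950 to 1.51, limma adjusted p = 0.485), with 0.41 among high-ratio arrays and 0.034 among low-ratio ones, so the gap came mostly from mutant 1 and mutant 2. Its signal lay close to the filter. Hk2, the form of growing and insulin-responsive tissue, read 5596, 4615 and 4310 in controls and 4810, 3831 and 4760 in mutants, and control 1 was highest and mutant 2 lowest. The genotypes overlapped, with a log2 difference of −0.11 (SE 0.13, adjusted p = 0.767).

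**Figure D2:**
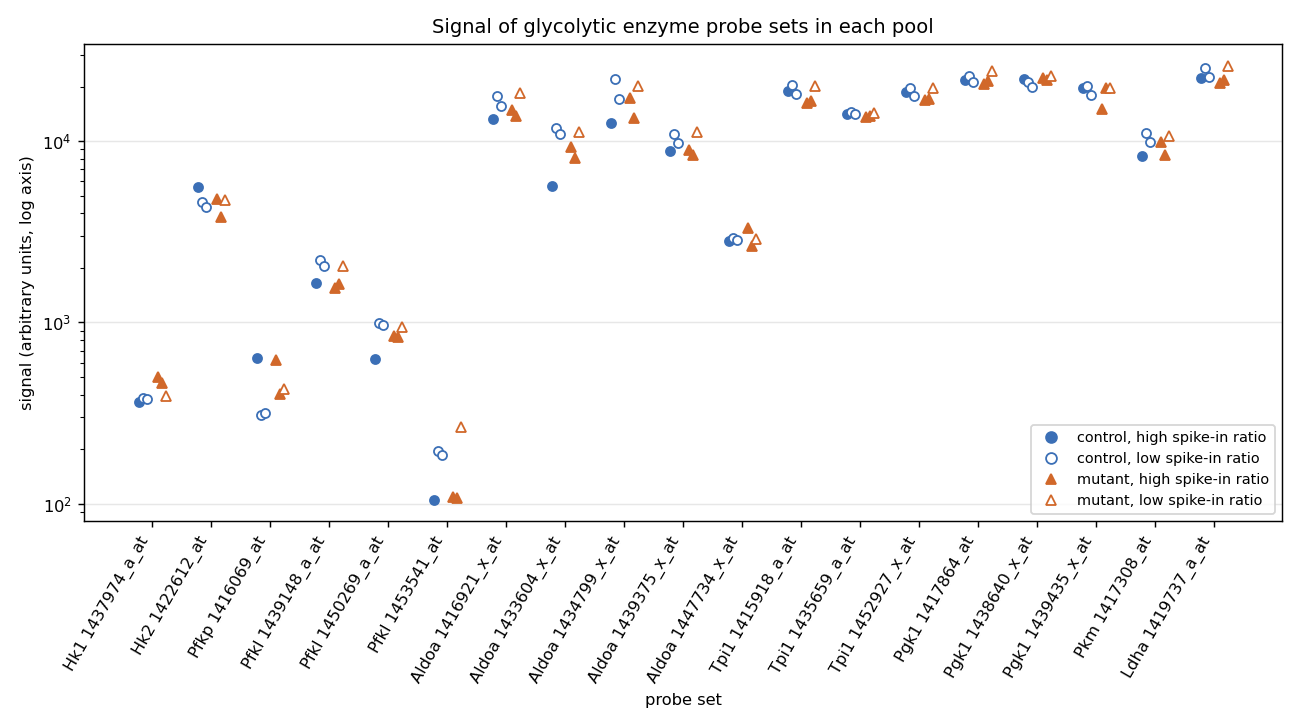
Signal (arbitrary units, log axis) of each of the 19 member probe sets in each pool, in pathway order along the x axis; circles are control pools, triangles mutant pools, and filled symbols high-ratio arrays. Genotypes overlap in all but Hk1, and levels of different probe sets are not comparable. Filled and open symbols part within both genotypes for several probe sets of Pfkl and Aldoa.

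Phosphofructokinase commits the sugar to glycolysis and is the main control point of the pathway; Pfkp and Pfkl encode its platelet and liver forms. Pfkp read 639, 310 and 315 in controls and 619, 404 and 427 in mutants. Its signal, like that of Hk1, lay close to the filter. Control 1 and mutant 1, both high-ratio arrays, were about level, and the other 2 controls lay below all mutants. The log2 difference was 0.26 (SE 0.29, adjusted p = 0.760), the widest error among the members, with a 95% interval of 0.762-fold to 1.87-fold. It was −0.35 among high-ratio and 0.45 among low-ratio arrays, and with 1 array left out it ran from 0.065 without mutant 1 to 0.60 without control 1 (lowest adjusted p = 0.168), with 0.080 without control 2 and 0.090 without control 3.

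Pfkl had 3 probe sets, of which 1453541_at lay below the filter, with 105, 196 and 185 in controls and 109, 108 and 265 in mutants. Probe set 1439148_a_at read 1646, 2202 and 2058 in controls and 1551, 1625 and 2040 in mutants, a log2 difference of −0.18 (SE 0.15, adjusted p = 0.664). Probe set 1450269_a_at read 627, 990 and 974 in controls and 844, 835 and 946 in mutants, with a log2 difference of 0.047 (SE 0.18, adjusted p = 0.942). In all 3 probe sets control 1 was below both other controls, and mutant 1 and mutant 2 were below mutant 3. The 2 tested probe sets differed in sign, and neither passed the test.

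Aldolase A cleaves the 6-carbon sugar into 2 trioses, and was measured by 5 probe sets, all of the kind (_x_at) that can cross-hybridise. Their log2 differences lay between −0.064 and 0.067, and 0 passed (adjusted p 0.878 to 0.992). Probe set 1433604_x_at read 5643 in control 1 but 11802 and 10969 in the other controls, and 9255, 8093 and 11216 in mutants. Control 1 was the lowest of the 6, and the highest pool was 2.09 times the lowest. The log2 difference was 0.067 (SE 0.25), and with 1 array left out it ran from −0.27 without control 1 to 0.26 without control 2, with 0.21 without control 3 and 0.18 without mutant 2 (lowest adjusted p = 0.322). Probe set 1434799_x_at had the same order of controls, with 12597, 21992 and 17051, and 17308, 13409 and 20066 in mutants (log2 difference −0.0068, SE 0.20). Probe set 1416921_x_at read 13294, 17819 and 15567 in controls and 14889, 13744 and 18414 in mutants. Probe set 1439375_x_at spanned 8383 to 11242 over the 6 pools and 1447734_x_at 2653 to 3305. The lowest of the 6 values was in control 1 for 3 of the 5 probe sets and in mutant 2 for the other 2.

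Among the member probe sets tested, the highest pool was 1.06 to 1.35 times the lowest from triose phosphate isomerase on. In the steps before it, the highest was 1.25 to 2.09 times the lowest. Signal level ran partly in the same order, with geometric means of 9660 to 23069 from this step on and 411 to 16739 before it. The top signals of the arrays were 33237 to 41939. Whether signals this high are compressed, which would narrow spreads and intervals, was not tested. The Gapdh array controls, which are no members, ranged more widely, as given above. Triose phosphate isomerase, which interconverts the 2 trioses, had 3 probe sets. Its probe set 1435659_a_at read 14118, 14535 and 14099 in controls and 13672, 13845 and 14280 in mutants, so that the highest pool was 1.06 times the lowest. Its log2 difference was −0.033 (SE 0.076, 95% interval 0.868-fold to 1.10-fold, adjusted p = 0.899). Probe sets 1415918_a_at and 1452927_x_at had −0.12 (SE 0.10, adjusted p = 0.657) and −0.068 (SE 0.090, adjusted p = 0.798), with mutant 1 and mutant 2 below all controls and mutant 3 among them.

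Phosphoglycerate kinase, which makes the first ATP of the pay-off phase, is encoded by the X-linked gene Pgk1. Probe set 1417864_at read 21768, 22975 and 21153 in controls and 20748, 21405 and 24473 in mutants (log2 difference 0.013, SE 0.089, 95% interval 0.879-fold to 1.16-fold, adjusted p = 0.968). Probe set 1438640_x_at had 0.087 (SE 0.079, adjusted p = 0.693). Probe set 1439435_x_at had −0.10 (SE 0.12, adjusted p = 0.761), where mutant 1, at 15053, lay below the other 5 pools, which spanned 17997 to 20230. The genotypes overlapped in all 3 probe sets of Pgk1.

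Pyruvate kinase makes the pathway's last ATP, and its Pkm gene gives rise to the M1 and M2 forms by splicing, which the single probe set is not known here to separate. Pkm read 8263, 11148 and 9952 in controls and 9867, 8413 and 10680 in mutants, a log2 difference of −0.016 (SE 0.13, 0.989-fold, 95% interval 0.806 to 1.21, adjusted p = 0.973). Control 1 was lowest and control 2 highest, so both ends of the range lay within the controls. Ldha encodes the muscle-type subunit of lactate dehydrogenase, and its promoter window is the one with the full CRE printed above. It read 22346, 25207 and 22489 in controls and 21034, 21680 and 26089 in mutants. Mutants held both the lowest and the highest value. The log2 difference was −0.030 (SE 0.10, 0.979-fold, 95% interval 0.835 to 1.15, adjusted p = 0.933), with −0.065 among high-ratio and 0.13 among low-ratio arrays.

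**Figure D3:**
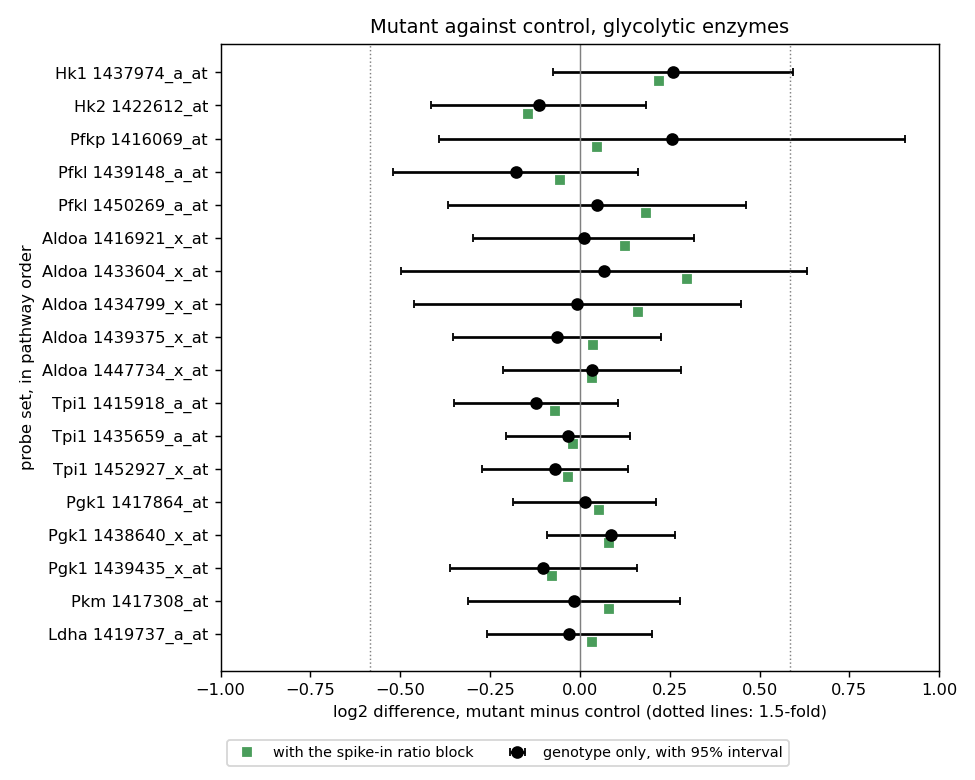
Log2 difference, mutant minus control, of the 18 member probe sets above the filter, in pathway order; black points with bars are the limma estimate and its 95% interval (n = 3 pools per genotype), and green squares the estimate with the spike-in ratio split in the model. All 18 intervals include 0, and 15 lie between the dotted lines at 1.5-fold.

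Unadjusted p lay under 0.05 for 0 of the 18 member probe sets, against 13.6% of all probe sets tested, and the lowest was 0.112, for Hk1. The count called was 0 as well with each alternative that has a test. The absolute log2 difference had a median of 0.065 in the members and of 0.13 over all probe sets tested, while median SE was 0.13 and 0.14. With 1 probe set per gene, the one with the highest mean, 0 of 9 member genes passed among 7245 genes, of which 123 did.

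More members differed by the split of the arrays on the dap ratio than by genotype. In the fit with genotype and split together, the log2 difference of high-ratio minus low-ratio arrays passed the test for 6 of 18 member probe sets, 5 lower and 1 higher in the high-ratio arrays. Over all probe sets tested, 13.4% passed, 8.55% lower and 4.89% higher. The 5 were 4 of Aldoa, down to −0.69 for 1433604_x_at (SE 0.13, adjusted p = 0.00314), and Pfkl 1439148_a_at (−0.37, SE 0.10, adjusted p = 0.0296), and the 1 was Pfkp (0.63, SE 0.20, adjusted p = 0.0493). Pkm had −0.29 (SE 0.10, adjusted p = 0.0691) and Ldha −0.19 (SE 0.098, adjusted p = 0.222), and the Tpi1 and Pgk1 probe sets lay between −0.16 and 0.020. The median over the members was −0.14, and over all probe sets tested −0.0096. With the split in the model the members' median SE fell from 0.13 to 0.10, and 0 of 18 passed for genotype, where 4.73% of all probe sets did. The lowest unadjusted p was then that of Aldoa 1433604_x_at, 0.0320 (log2 difference 0.30, SE 0.13, adjusted p = 0.199), the only one of the 18 under 0.05, against 20.2% of all probe sets. The split was made from a spiked control and not from the samples' own genes, and it is not a group of the study.

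**Figure D4:**
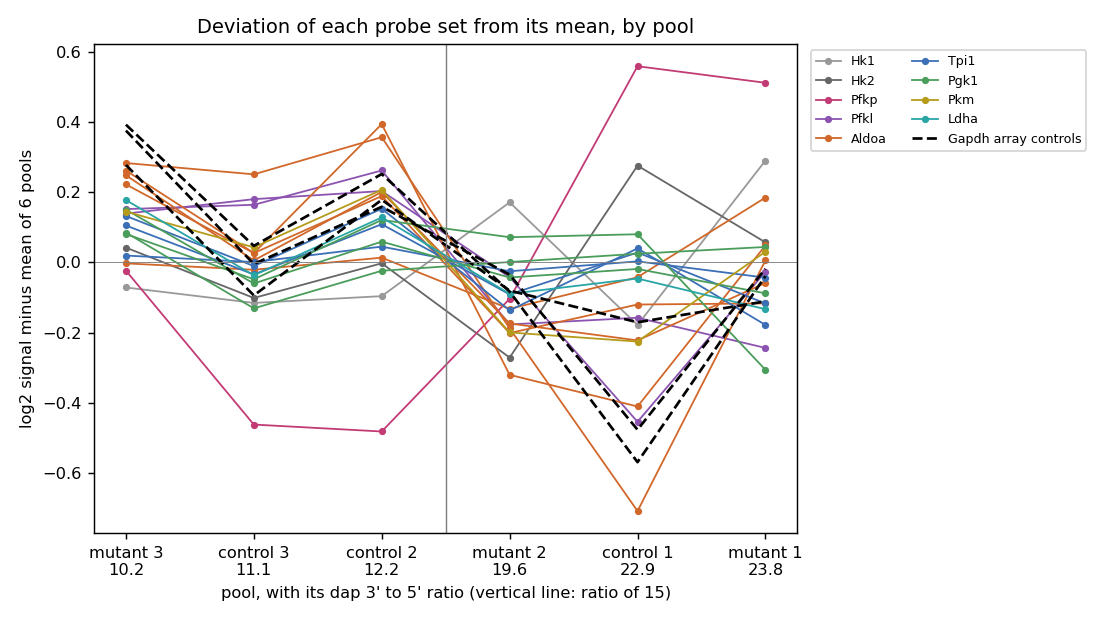
Log2 signal of each tested member probe set minus its mean over the 6 pools, with pools ordered along the x axis by their dap 3' to 5' ratio; dashed lines are the 3 Gapdh array controls. Most lines lie above 0 in mutant 3 and control 2 and below 0 in control 1 and mutant 2. Pfkp runs the other way in these pools except mutant 2, and the genotypes do not part except in Hk1.

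The probe sets whose values over the 6 pools were most like the mean member pattern were those of Gga2, Nsd3, Cilk1, Kdm2b and Tmem201, of 10828 other probe sets with 1 symbol. Pearson's r was 0.983 to 0.988 and Spearman's rho 0.886 to 1, as a description over 6 pools that share the split above. Each of these 5 had an adjusted p over 0.94 between genotypes.

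Beyond the members, 81 genes linked to glycolysis were followed in 7 lists, of which 55 were in the table and 42, with 64 probe sets, above the filter. Of these 64, 0 passed the test in either direction, and 6 (9.38%) had an unadjusted p under 0.05, against 13.6% of all probe sets tested. The lists' median log2 differences lay between −0.054 and 0.22. The highest was that of the remaining enzymes and paralogs of the pathway. In it 10 of the 11 probe sets were positive, all but that of Aldoc, where 5822 of all 11731 were. The 11 stand for only 6 genes, and 3 of them had an unadjusted p under 0.05. The positive ones included all 4 probe sets of Ldhb, the heart-type subunit of lactate dehydrogenase, with 0.27, 0.33, 0.46 and 0.37 (adjusted p 0.211 to 0.457). Its probe set 1455235_x_at read 907, 822 and 863 in controls and 1178, 1129 and 1050 in mutants, without overlap, and 2 of the other 3 did not overlap either. Groups do not overlap in 20% of all probe sets tested, and 9.53% have mutants above controls, as these of Ldhb do. The difference between the 2 lactate dehydrogenase genes, Ldhb above and Ldha at −0.030, was not tested.

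Bpgm, which makes the 2,3-bisphosphoglycerate of red cells, had 0.48 in its probe set 1448119_at (SE 0.17, adjusted p = 0.269; 327, 330 and 423 in controls, 459, 599 and 453 in mutants) and 0.11 and 0.18 in the other 2. The blood markers' summed signal, nearly all globin, was higher in each mutant than in each control pool, Tal1 was lower in each mutant, and their part in the Bpgm values was not tested. Gapdh was measured only by the array's control probe sets, which are kept out of the test. Their log2 differences were 0.057, 0.18 and 0.22 from the 3', the middle and the 5' probe set, and Gapdh is named here outside the rule for named genes.

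Glucose enters through Slc2a1 and Slc2a3. Their 5 tested probe sets had log2 differences between −0.018 and 0.11 (lowest adjusted p = 0.690). A further 2 probe sets of Slc2a3 lay below the filter and were higher in each mutant than in each control. Probe set 1421924_at read 127, 139 and 204 in controls and 296, 400 and 254 in mutants, and in the fit without a filter its log2 difference was 1.02 (SE 0.24, adjusted p = 0.0997). Probe set 1427770_a_at read 161, 115 and 140 in controls and 258, 469 and 161 in mutants (log2 difference 0.96, SE 0.33, adjusted p = 0.256 in the same fit), where mutant 3 and control 1 were level. The probe sets of Slc2a3 thus disagree. Among the regulators of flux, Hif1a, the oxygen-labile subunit of HIF-1, had −0.43 in 1416035_at (SE 0.19, adjusted p = 0.373; 1627, 1035 and 964 in controls, 863, 923 and 841 in mutants) and −0.020 in 1427418_a_at (SE 0.087). Only the first had genotypes that did not overlap. Pdk1, a kinase that switches off pyruvate dehydrogenase, had −0.036 to 0.20 in its 3 probe sets.

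Where pyruvate enters the mitochondrion, Pdha1, the E1 alpha subunit of pyruvate dehydrogenase, had the lowest p of all 7 lists. Its probe set 1418560_at read 6093, 4307 and 4453 in controls and 2693, 3321 and 3129 in mutants, all mutants below all controls. The log2 difference was −0.69 (SE 0.15, adjusted p = 0.0804), which does not pass, and with the spike-in ratio split in the model it was −0.76 (adjusted p = 0.00273). The other probe set of Pdha1, 1449137_at, had 0.051 (SE 0.25, adjusted p = 0.957), with 690, 547 and 654 in controls and 739, 889 and 417 in mutants, so the 2 probe sets disagree. Mpc1, a subunit of the mitochondrial pyruvate carrier, had 0.30 (SE 0.14, adjusted p = 0.392).

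In the pentose phosphate pathway, which branches off at glucose-6-phosphate, Pgd (phosphogluconate dehydrogenase) had −0.35 in its probe set 1438627_x_at (SE 0.21, adjusted p = 0.516) and −0.15 to −0.054 in the other 3, and Rpe (ribulose-phosphate epimerase) had 0.16 and 0.21. For gluconeogenesis and glycogen, Pgm1, annotated as a phosphoglucomutase gene, had 0.46 (SE 0.20, adjusted p = 0.348), with 0.73 among high-ratio and 0.019 among low-ratio arrays, and Gbe1, the glycogen branching enzyme, had −0.18. Hypoxia-response genes outside the pathway had a median of −0.0060 over 9 probe sets. Ddit4, an inhibitor of mTORC1 that also responds to p53, had 0.60 (SE 0.21, adjusted p = 0.243; 1735, 1860 and 1203 in controls, 3035, 1886 and 2368 in mutants), and P4ha2, a collagen prolyl hydroxylase subunit, had −0.25 (adjusted p = 0.485).

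**Figure D5:**
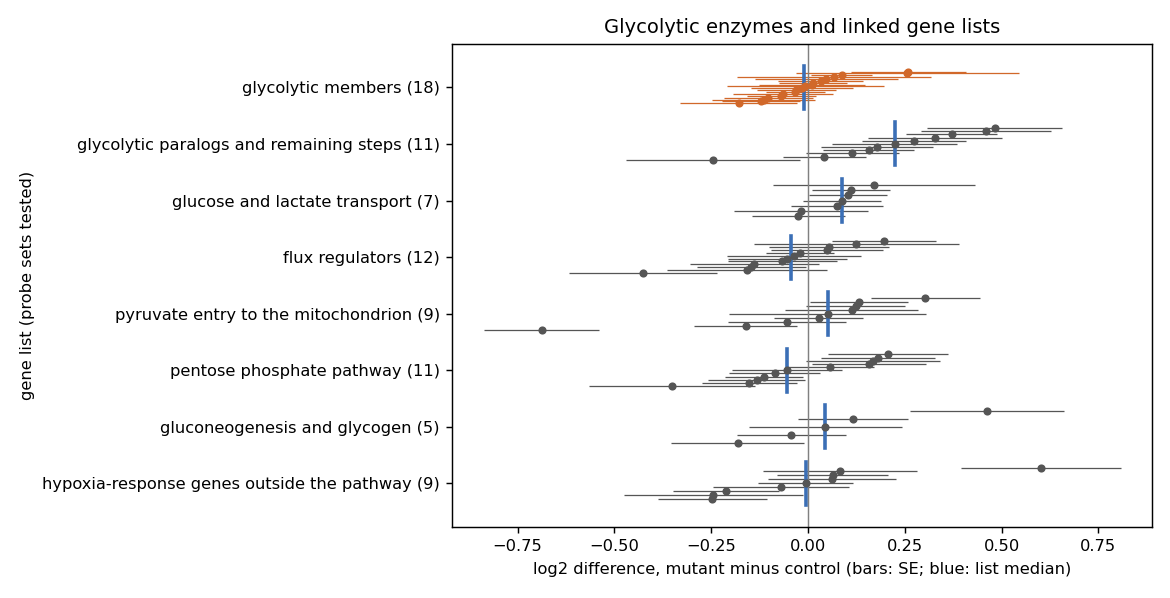
Log2 difference, mutant minus control, of the tested probe sets of the glycolytic members (orange) and of 7 linked gene lists (grey), with SE bars and the median of each list in blue; the number of probe sets is in parentheses. The member values cluster around 0, the remaining glycolytic steps and paralogs have the highest median, 0.22, and the lowest single value, −0.69, is that of Pdha1 1418560_at.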

How the data were processed

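The members and gene lists were chosen with earlier results of these data known. The authors deposited linear intensities, 1 per probe set and array, for 19606 probe sets. Affymetrix Expression Console and MAS5 appear in the submitters' processing notes; their versions, the target of the scaling and how probe sets were selected are not given in the sources used here. Of these, 55 array controls were left out of tests. The platform annotation gave 17348 probe sets 1 symbol and 494 several, and 1709 were not named. Scanner files and detection calls are not analysed here.

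Signals were analysed as log2(signal + 1) on the authors' scaling; median signal per array was 491 to 535. Probe sets with a mean below the 40th percentile (geometric mean signal 349) were left out. Mutant and control pools were compared with limma 3.58.1 (R 4.3.3), a linear model on genotype with moderated variances that follow an intensity trend; p-values are two-sided and Benjamini-Hochberg adjusted over the 11731 probe sets; SE and 95% intervals come from that fit, which was tested on simulated data. The number of arrays (3 pools per genotype) limits the precision. Named in the text are all members and, per linked list, called probe sets and the genes of the 2 lowest p. Same-numbered arrays were not taken as pairs. The spike-in ratio split was at a dap ratio of 15, known from earlier results; its own coefficient was added after seeing the data. Other alternatives changed normalization, offset, filter, trend, weights, threshold, probe set choice and the arrays included.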

Additional observations from a re-analysis of the deposited data

How the results depend on the processing

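Under every alternative with a test, 0 member probe sets passed. Their median log2 difference, −0.011, lay between −0.10 and 0.059 with 1 array left out, and was 0.042 with the spike-in ratio block, always within 1 SD of the spread between pools (0.11). Of 286 single-member values in the tested alternatives, 33 changed sign, in 11 of 18 probe sets, with values between −0.27 and 0.19, and 0 passed. The 286 include values that could not change, since another filter, trend or threshold and the replicate block leave the log2 differences as they are. Hk1 and Pfkp lay below the filter at the 60th percentile and were not tested with it. Of 36 values within 1 set of arrays, which have no test, 14 moved by over 1 SD. The lowest adjusted p was 0.0669, for Pfkp with array quality weights, where 3 of 18 had an unadjusted p under 0.05. Of all probe sets, 10.2% had an adjusted p under 0.05 with these weights, so at least that share had an unadjusted p under 0.05. These weights ran from 0.315 for control 1 to 4.29 for control 3. Counts over all probe sets, 81 in the main comparison, were 48 with a filter at the 60th percentile, where fewer probe sets were tested, 1196 with array quality weights, 555 with the spike-in ratio block and 243 at an adjusted p under 0.1, and with 1 array left out they ran from 24 to 149; the cause was not tested. The linked lists had 0 calls, but 4 with array quality weights (Pdha1 1418560_at, Ddit4 and 2 of Ldhb), 4 with the spike-in ratio block (Pdha1 1418560_at, Hif1a 1416035_at, Pgd 1438627_x_at and Bsg) and 1 at an adjusted p under 0.1 (Pdha1 1418560_at). Bsg is named here after its values were seen. The labels number the pools of both genotypes 1 to 3, and residuals of equal numbers correlated at 0.20, −0.45 and 0.37. Arrays numbered 1 were both high-ratio, those numbered 3 both low-ratio, and those numbered 2 were 1 of each. These correlations therefore cannot tell pairing from the split. The numbers were not taken as pairs. With the replicate block, 0 members and 120 probe sets over all were called. Without cross-hybridising kinds of probe set, 10 member probe sets were left and 0 passed.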
